A study of Mus musculus with 6 samples.

Results

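The genes described here are 30 targets and partners of p53, the transcription factor that answers DNA damage and other stress, taken from a list of gene symbols out of 18193 genes named on the array. In myeloerythroid progenitors of mouse bone marrow that carry active Notch2, the p53 targets did not move as a block. Perp and Zmat3 rose, Sesn1 fell, and 22 of the 25 tested genes did not pass the test, which 4.35% of all genes passed. Cdkn1a, Mdm2 and Ccng1, which are among the best known p53 targets, did not pass it either. Each of the 3 calls was lost when some single arrays were left out.

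The cells were sorted as lineage-negative, cKit-positive and Sca1-negative. All mice were 6 weeks old, carried Mx1-cre and had been given polyIC 3 times (20 mcg/g), with the cells taken 1 week after the last dose. The ICN2-positive group (genotype Rosa-lsl-ICN2 Mx1-cre+, male, 3 arrays) also carried a Rosa26 transgene for ICN2, the intracellular part of Notch2, behind a stop cassette that Cre removes. The ICN2-negative group (genotype Mx1-cre+, female, 3 arrays) consisted of littermates without the transgene. Mx1-cre is switched on by interferon, which polyIC induces, and acts in many cell types besides the sorted ones, so the bone marrow around these cells may carry active ICN2 too.

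Sex differs between the groups exactly as genotype does, so the effects of these cannot be told apart. None of the 28 measured p53 genes lies on the X or Y chromosome. The sex-linked genes followed the labels on every array: Xist lay at 11.2 to 11.4 (log2 intensity) in the ICN2-negative group and at 4.70 to 5.47 in the ICN2-positive group, and Eif2s3y, Kdm5d and Uty were higher in all 3 ICN2-positive arrays. The labels do not say whether the 3 arrays of a group came from separate animals, so the spread behind the p-values may be only technical. Kit, the receptor used in the sort, lay at 10.4 to 10.5 in the ICN2-negative and 10.2 to 10.9 in the ICN2-positive arrays. Cd34 and Fcgr3, listed with Kit as surface markers, were lower in every ICN2-positive array than in any ICN2-negative one. This held for 16.9% of all genes, and neither marker passed in limma. The summed linear intensity of the 3 markers was 12135 to 14574 in ICN2-negative and 2168 to 9793 in ICN2-positive arrays. The Sca1 gene Ly6a had no listed probe set. ICN2-positive replicate 1 stood apart, with correlations to the other arrays of its group of 0.984 and 0.987 over all probe sets. Any other pair within a group correlated at 0.9936 or more.

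In unstressed cells p53 is kept low by Mdm2, a ubiquitin ligase, and by its relative Mdm4. When stress frees p53, it binds DNA at paired copies of a short decamer and raises genes that stop the cell cycle, favour apoptosis, repair DNA or change metabolism, together with Mdm2 itself as a feedback. In blood-forming cells this pathway is known for limiting the number of stem and progenitor cells after DNA damage.

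The p53 decamer consensus, which reads the same on both strands, was searched in the 250 bases before each RefSeq transcription start (mouse build GRCm38.p6). Of the 30 genes, 22 had a window, and 10 of these held a match. Over all 27025 genes with a window the share was 8.20%, and over all 32851 windows 7.13%. A match is a description of the letters, not a bound site. These windows are shown because they include the 1 gene with a window that passed the test in the expression data (Sesn1) and 3 classical targets that did not pass it. They read 5′ to 3′ along the gene, with the match in capitals. The Sesn1 match starts 173 bases before the second of its listed starts, at chr10:41887241-41887300 (plus strand); the window of its other start held none. The Mdm2 stretch is chr10:117710910-117710969 (minus strand), the Ccng1 stretch chr11:40755437-40755496 (minus strand) and the Cdkn1a stretch chr17:29090881-29090962 (plus strand), which holds 2 matches. The window of the other listed Cdkn1a start held none.
Sesn1: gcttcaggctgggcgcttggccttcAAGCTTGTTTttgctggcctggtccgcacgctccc
Mdm2: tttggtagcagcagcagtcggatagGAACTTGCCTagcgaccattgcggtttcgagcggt
Ccng1: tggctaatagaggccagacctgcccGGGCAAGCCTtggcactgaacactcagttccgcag
Cdkn1a: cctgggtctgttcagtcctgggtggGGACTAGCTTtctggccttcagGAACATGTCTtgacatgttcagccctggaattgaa

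Of the 30 genes, 28 had at least 1 probe set named for that gene alone; where there were several, the one with the highest mean over the 6 arrays was used. Trp53, which encodes p53 itself, and Bax, a pore-forming apoptosis protein, had no listed probe set and were not analysed here. Tnfrsf10b, Plk2 and Plk3 lay too low to be tested, since a gene had to lie above the 40th percentile of its array (5.26 to 5.30) on at least 3 of 6 arrays. Of the 25 tested genes, 24 lay above it on all 6 arrays and Fas on 4. These were 3 ICN2-negative arrays and 1 ICN2-positive array, so Fas was tested mainly through the group in which it is higher.

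Differences are ICN2-positive minus ICN2-negative in log2 intensity, with the standard error of the limma fit and an adjusted p over all 12834 genes tested (Benjamini-Hochberg, threshold 0.05). Of the 25 genes, 2 were higher and 1 was lower. Over all genes tested, 4.35% were called (2.58% higher, 1.77% lower), so about 1 call among 25 genes would match the background. An unadjusted p below 0.05 was found for 11 of the 25, and for 27.4% of all genes. The median difference of the 25 genes was 0.04, against 0.02 over all genes. Their median absolute difference was 0.41, against 0.18. The groups did not overlap for 13 of the 25 genes, 9 with all ICN2-positive arrays above and 4 with all below, where the shares over all genes were 37.5%, 20.6% and 16.9%. In sorted cells measured in bulk, fewer cells of a type and less RNA per cell cannot be told apart.

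**Figure D1:**
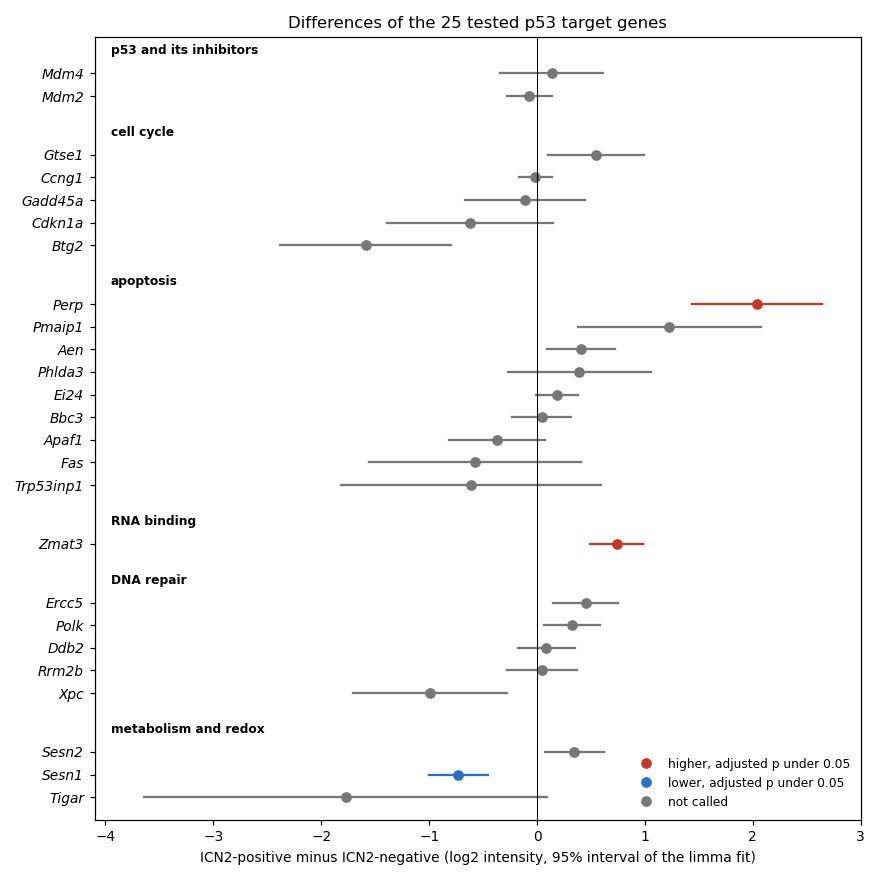
Difference of each of the 25 tested p53 target genes (ICN2-positive minus ICN2-negative, log2 intensity; points are limma estimates, lines 95% intervals, n = 3 per group), grouped by the gene's role. Perp at 2.04 and Zmat3 at 0.74 were called higher and Sesn1 at -0.73 lower, while Mdm2 and Ccng1 lie near 0 with short intervals.

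Neither of the brakes on p53 passed in limma. Mdm2 read 11.57, 11.59 and 11.65 in ICN2-negative replicates 1 to 3 and 11.40, 11.65 and 11.54 in the ICN2-positive ones. Its difference was -0.07 ± 0.08, with a 95% interval from -0.28 to 0.13 (limma adjusted p = 0.611). For this probe set the interval leaves out a change of 1.5-fold in either direction. Mdm4, which binds p53 and blocks its activity, read 10.67, 10.68 and 10.24 against 10.99, 10.57 and 10.44, a difference of 0.14 ± 0.19 (interval -0.34 to 0.61). The Mdm4 interval does not leave out a rise of 1.5-fold. For both genes the groups overlapped. A dimmer probe set differed by 0.18 for Mdm2 and by -0.02 for Mdm4 (adjusted p = 0.506 and 0.955 over probe sets).

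None of the 5 tested cell cycle genes passed in limma, where 4.35% of all genes did, and Btg2 came closest. The unadjusted p was below 0.05 for 2 of the 5, and for 27.4% of all genes. Btg2, an antiproliferative protein that promotes the decay of messenger RNA, read 7.90, 8.36 and 7.87 in ICN2-negative arrays and 5.84, 7.02 and 6.50 in ICN2-positive arrays. All ICN2-positive arrays lay below, by at least 0.85, and the difference was -1.59 ± 0.32 (3.01-fold, limma adjusted p = 0.0565). Without ICN2-positive replicate 1, its lowest array, it passed (adjusted p = 0.0461, difference -1.29), and also without ICN2-positive replicate 2 (adjusted p = 0.047, difference -1.87). Leaving out any of the other 4 arrays gave adjusted p values of 0.108 to 0.186. Its dimmer probe set differed by -0.53 (adjusted p = 0.341 over probe sets).

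Cdkn1a, the cyclin-dependent kinase inhibitor through which p53 arrests the cell cycle, read 9.48, 8.58 and 8.75 in ICN2-negative arrays. The ICN2-positive arrays read 7.85, 8.60 and 8.50, so that ICN2-negative replicate 1 was the highest array and ICN2-positive replicate 1 the lowest. The remaining 4 arrays lay between 8.50 and 8.75. The difference was -0.62 ± 0.31 (interval -1.39 to 0.15, limma adjusted p = 0.257), and -0.33 in its other probe set.

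Gadd45a, a growth arrest gene induced by DNA damage, differed by -0.11 ± 0.22 with overlapping groups. Ccng1, cyclin G1, was almost constant, at 12.52, 12.56 and 12.55 against 12.57, 12.48 and 12.53. Its interval was -0.17 to 0.13, although its 2 dimmer probe sets differed by 0.33 and 0.36 (adjusted p = 0.306 and 0.0857 over probe sets). Gtse1, a microtubule-associated protein of G2 phase that restrains p53, read 8.33, 7.93 and 8.05 against 8.95, 8.39 and 8.61. The Gtse1 groups were separated by 0.05, with a difference of 0.55 ± 0.18 (limma adjusted p = 0.129). Plk2 and Plk3, polo-like kinases, read 4.08 to 5.00 and 4.51 to 4.94 over the 6 arrays and were not tested.

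Among the apoptosis genes Perp rose. Perp, a tetraspan membrane protein that acts in p53-dependent apoptosis and in desmosomes, read 8.10, 8.50 and 7.75 in ICN2-negative arrays and 9.83, 10.19 and 10.46 in ICN2-positive arrays. Every ICN2-positive array was above every ICN2-negative one, with a gap of 1.33 between the groups. The difference of 2.04 ± 0.24 (4.11-fold, limma adjusted p = 0.0166) was the largest of the 25 genes in size. Its call held on leaving out ICN2-negative replicate 2 (adjusted p = 0.0437) and on leaving out ICN2-positive replicate 1 (adjusted p = 0.0162). Each of the other 4 arrays, left out singly, moved it past the threshold (adjusted p = 0.05002 to 0.0667), with differences of 1.86 to 2.03.

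Pmaip1, which encodes the BH3-only protein Noxa, read 6.51, 7.77 and 7.60 in ICN2-negative arrays and 8.39, 8.55 and 8.64 in ICN2-positive arrays. The ICN2-positive arrays lay close together and all above, while ICN2-negative replicate 1 lay more than 1 unit below the rest of its group. The difference was 1.23 ± 0.34 (2.34-fold, limma adjusted p = 0.0998). Without ICN2-negative replicate 1 it was smaller, at 0.84, and passed (adjusted p = 0.0497).

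Bbc3, the other classical BH3-only target, known as Puma, read 6.15, 6.45 and 6.15 against 6.26, 6.21 and 6.40, a difference of 0.04 ± 0.11 (interval -0.23 to 0.32). The difference between Pmaip1 and Bbc3 in response was not tested.

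Aen, an apoptosis-enhancing nuclease, read 12.58, 12.11 and 12.31 against 12.78, 12.71 and 12.73. All ICN2-positive arrays were higher and lay close together, and the difference was 0.41 ± 0.13 (limma adjusted p = 0.118). Its 3 dimmer probe sets differed in the same direction and by more, at 1.14, 0.95 and 0.77, with none called over probe sets (adjusted p = 0.0990 to 0.238).

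Ei24, a membrane protein of the endoplasmic reticulum induced by p53, differed by 0.19 ± 0.08 (limma adjusted p = 0.202) with the groups 0.06 apart. Phlda3, which restrains Akt at the membrane, read 7.76, 7.16 and 6.92 against 7.67, 7.99 and 7.35 (difference 0.39 ± 0.27). The groups of Phlda3 overlapped.

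For the 3 remaining tested apoptosis genes the ICN2-positive mean was lower and the groups overlapped. Apaf1, the scaffold of the apoptosome, read 11.08, 11.43 and 11.38 against 10.59, 11.05 and 11.14 (difference -0.37 ± 0.18, limma adjusted p = 0.243). Fas, a death receptor, read 5.36, 6.57 and 5.53 against 4.81, 5.75 and 5.17, close to the limit of the filter. Trp53inp1, a stress-induced nuclear protein that promotes p53 activity, read 10.24, 11.18 and 10.42 against 9.01, 10.58 and 10.42. For Trp53inp1 the only ICN2-positive array below the ICN2-negative range was replicate 1. Tnfrsf10b, the TRAIL death receptor, read 4.88 to 5.63 over the 6 arrays and was not tested.

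**Figure D2:**
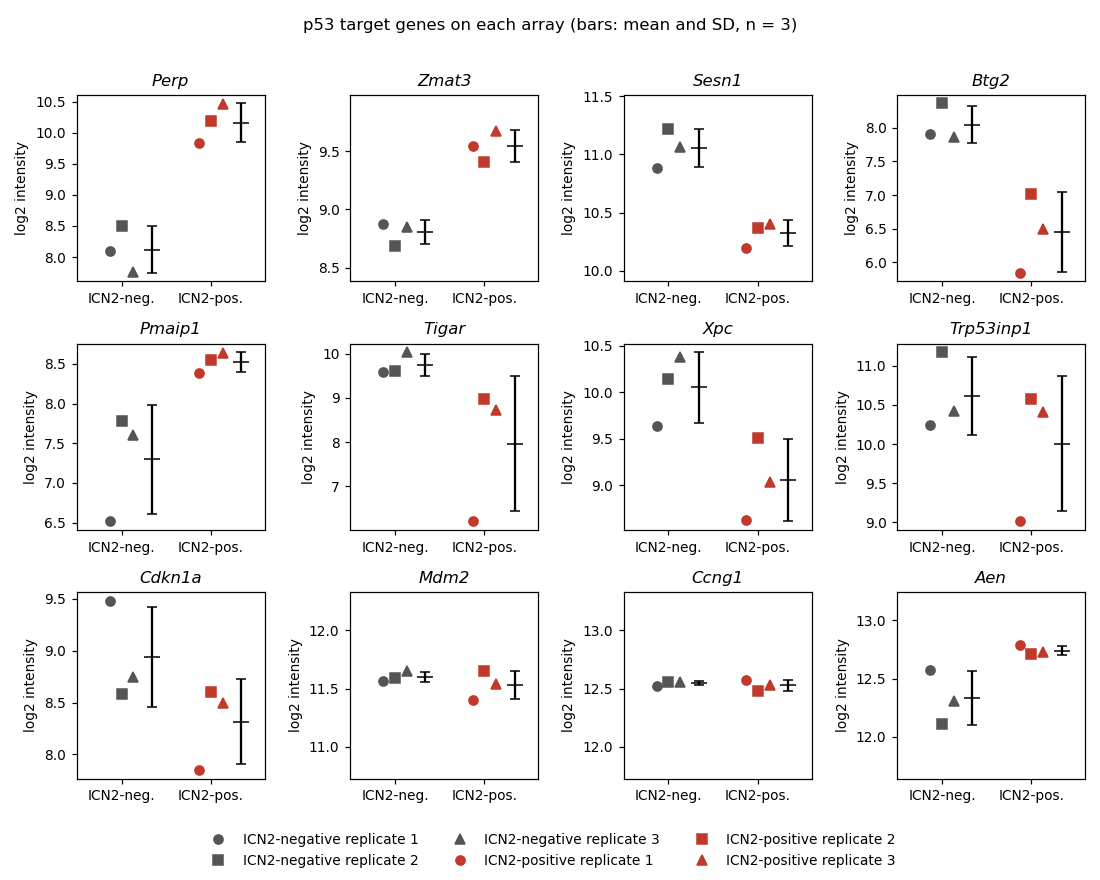
Log2 intensity of 12 p53 target genes on each array (symbols mark the replicate; bars are the mean and SD, n = 3 per group; each panel has its own axis). The groups are separate for Perp, Zmat3, Sesn1, Btg2, Pmaip1, Tigar, Xpc and Aen, and overlap for the others. Tigar and Trp53inp1 show ICN2-positive replicate 1 far below, at 6.21 and 9.01, and Mdm2 and Ccng1 are level.

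Zmat3 rose. Zmat3 encodes a zinc finger protein that binds RNA and is a direct p53 target. It read 8.88, 8.69 and 8.85 in ICN2-negative arrays and 9.54, 9.40 and 9.68 in ICN2-positive arrays. The groups were 0.52 apart and the difference was 0.74 ± 0.10 (1.67-fold, limma adjusted p = 0.023). The call held without ICN2-positive replicate 1 or 2 (adjusted p = 0.0369 and 0.0366) but not when another array was left out (adjusted p = 0.0583 to 0.101).

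The 5 DNA repair genes, all tested, gave no call in limma, where 4.35% of all genes were called. The unadjusted p was below 0.05 for 3, and for 27.4% of all genes. The ICN2-positive mean was lower for Xpc and higher for the other repair genes. Xpc, which recognises distorted DNA in nucleotide excision repair, read 9.64, 10.14 and 10.38 against 8.62, 9.51 and 9.03. All ICN2-positive arrays were below, by at least 0.12, with a difference of -0.995 ± 0.29 (1.99-fold, limma adjusted p = 0.106). Ercc5, the nuclease that cuts on the 3′ side in the same pathway, read 9.90, 9.68 and 9.64 against 10.39, 10.04 and 10.15. Here all ICN2-positive arrays were above, by at least 0.14, and the difference was 0.45 ± 0.12 (limma adjusted p = 0.0959).

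Ddb2, which finds ultraviolet damage upstream of Xpc, read 10.50, 10.85 and 10.72 against 10.84, 10.72 and 10.75 (difference 0.09 ± 0.11, overlapping). Its other probe set differed by 0.31 (adjusted p = 0.0955 over probe sets). Polk, a translesion DNA polymerase, differed by 0.32 ± 0.10 (limma adjusted p = 0.122) with the groups 0.09 apart, and by -0.23 in its dimmer probe set. Rrm2b, the p53-induced subunit of ribonucleotide reductase, read 10.28, 10.53 and 10.23 against 10.18, 10.53 and 10.46. Its difference was 0.04 ± 0.13 (interval -0.28 to 0.37).

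Of the genes for metabolism and redox balance, Sesn1 fell. Sestrins are stress-induced proteins that restrain mTOR signalling. Sesn1, whose promoter stretch is shown above, read 10.89, 11.21 and 11.06 in ICN2-negative arrays and 10.20, 10.36 and 10.40 in ICN2-positive arrays. All 3 ICN2-positive arrays were lower, with a gap of 0.48, and the difference was -0.73 ± 0.11 (1.66-fold, limma adjusted p = 0.0297). The other 3 Sesn1 probe sets differed by -0.49, -0.56 and -0.53 and were not called (adjusted p = 0.0818 to 0.168 over probe sets). As the mean of the gene's probe sets the difference was -0.58 (limma adjusted p = 0.0534). With the _x_at and _s_at probe sets left out, which can match several transcripts, it was -0.56 (adjusted p = 0.108). The call held without ICN2-negative replicate 1 or ICN2-positive replicate 1 (adjusted p = 0.0451 and 0.0424) but not when another array was left out (adjusted p = 0.0697 to 0.123).

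Sesn2, the related sestrin, differed in the opposite direction. It read 7.81, 7.67 and 7.98 against 8.03, 8.25 and 8.22, with all ICN2-positive arrays above by at least 0.05. The difference of 0.35 ± 0.11 did not pass (limma adjusted p = 0.12), and its other probe set differed by 0.37. Whether the 2 sestrins differ in response was not tested as a difference.

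Tigar, a fructose bisphosphatase that slows glycolysis and protects against oxidants, had the second largest difference of the 25 genes in size, at -1.77 ± 0.75 (limma adjusted p = 0.2). It read 9.58, 9.60 and 10.04 in ICN2-negative arrays and 6.21, 8.98 and 8.72 in ICN2-positive arrays. All ICN2-positive arrays were below, and replicate 1 lay more than 2 units under the other 2 of its group. Without replicate 1 the difference was -0.89 (limma adjusted p = 0.0572). A dimmer Tigar probe set had a tighter spread, at 7.64, 7.39 and 7.66 against 6.33, 6.74 and 6.77. It differed by -0.95 and was called in the fit over 27424 probe sets (adjusted p = 0.0420), in which 2.65% were called. That call held without ICN2-positive replicate 1 (adjusted p = 0.0371) but not when another array was left out (adjusted p = 0.082 to 0.154).

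**Figure D3:**
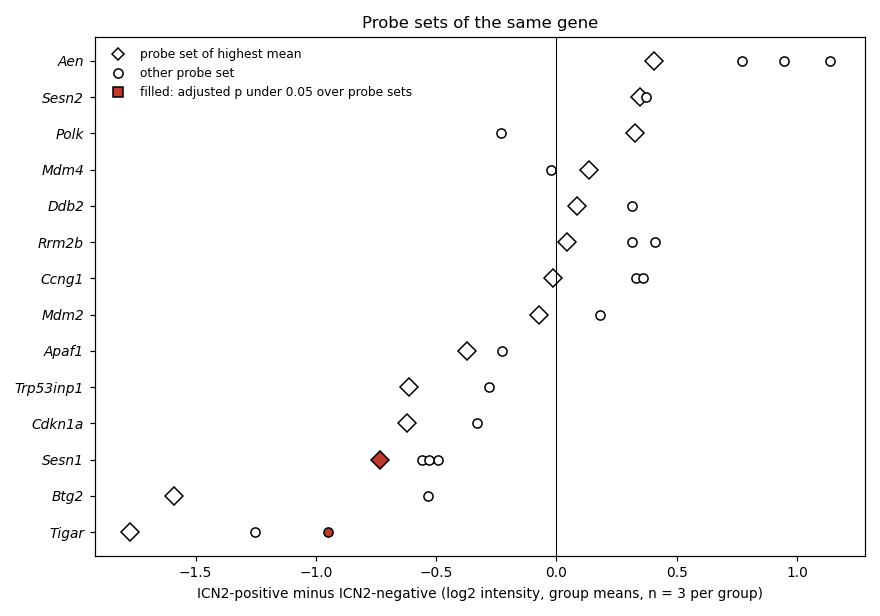
Difference (ICN2-positive minus ICN2-negative, log2 intensity) of every probe set past the filter for the 14 genes with several; diamonds mark the probe set of highest mean and filled symbols those called over probe sets. All probe sets had 1 sign for 10 of the 14 genes, and Ccng1, Mdm2, Mdm4 and Polk had both signs.

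Among the ICN2-positive arrays, replicate 1 lay farthest from the ICN2-negative mean, in these genes and over all genes tested. Replicates 2 and 3 correlated with each other at 0.9945 over all probe sets. The median absolute distance of the 25 genes from the ICN2-negative mean was 0.64 in ICN2-positive replicate 1, 0.30 in replicate 2 and 0.39 in replicate 3. Over all genes tested it was 0.26, 0.18 and 0.17 in ICN2-positive replicates 1 to 3. Replicate 1 was the farthest of the 3 for 15 of the 25 genes, and for 54.5% of all genes tested. Replicate 1 was also the lowest of the 6 arrays for 11 of the 25 genes, among them Tigar, Btg2, Xpc, Trp53inp1, Cdkn1a, Fas and Apaf1, and for 26.2% of all genes tested. Without that array the calls among the 25 genes were Perp and Zmat3 higher and Sesn1 and Btg2 lower.

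**Figure D4:**
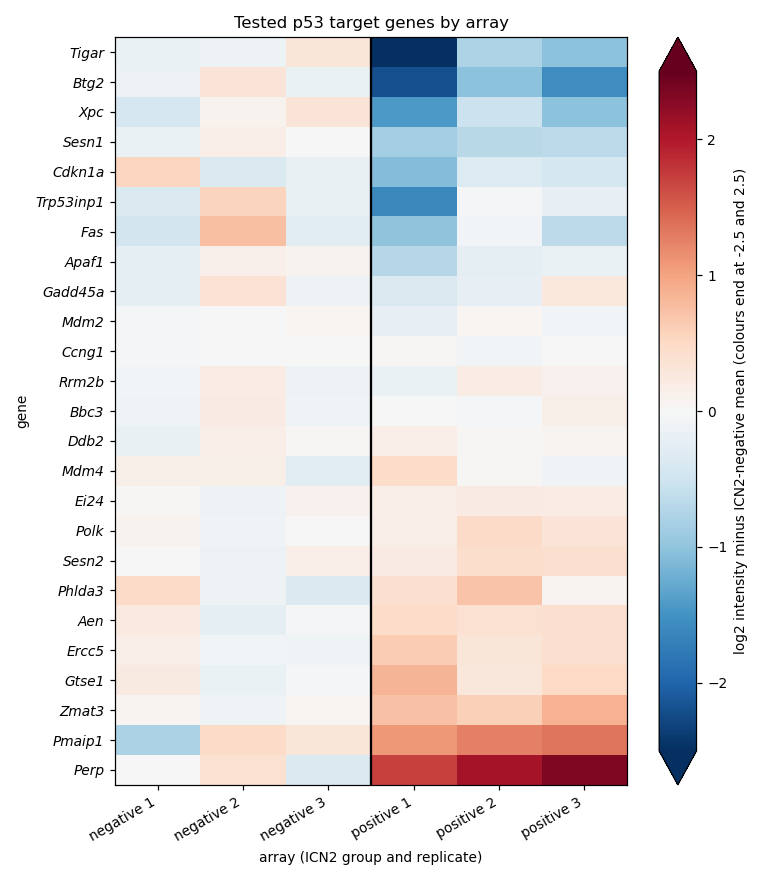
Log2 intensity of the 25 tested genes on each array minus the mean of the ICN2-negative arrays (red higher, blue lower; genes ordered by their sum over the ICN2-positive arrays). Perp is red in all 3 ICN2-positive arrays, and ICN2-positive replicate 1 is the darkest blue column for Tigar, Btg2 and Trp53inp1.

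Of the 10 tested markers of granulocyte-monocyte progenitors, which the sorted gate can hold, none passed in limma. An unadjusted p below 0.05 was found for 3, all lower, and for 27.4% of all genes. All 10 markers had lower values in every ICN2-positive array than in any ICN2-negative one, which held for 16.9% of all genes tested. ICN2-positive replicate 1 had the lowest sum of the 10 markers. Their summed intensity on the linear scale was 89314 to 99359 in ICN2-negative arrays, 11526 in ICN2-positive replicate 1 and 60772 to 67593 in the other ICN2-positive arrays. Irf8, a transcription factor of monocyte and dendritic progenitors, read 6.37 in ICN2-positive replicate 1 against 10.5 to 10.8 in replicates 2 and 3, and Gfi1, a granulocyte factor, read 5.95 against 8.95 and 9.003.

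Over all genes tested, 4.35% were called. Of 12 mast cell and basophil markers 4 rose (Mcpt1, Mcpt2, Mcpt4 and Il4), and the ICN2-positive mean was higher for 7 and lower for 5. Mcpt1, Mcpt2 and Mcpt4 lay above the 40th percentile in ICN2-positive arrays only, so they were tested only through the group in which they are higher. The summed intensity of the 12 markers was 17915 to 21902 in ICN2-negative and 9358 to 36581 in ICN2-positive arrays. Of 12 erythroid markers 3 fell (Trim10, Sptb and Epb42), and the ICN2-positive mean was higher for 4 and lower for 8. The erythroid sums were 67966 to 70587 against 60298 to 67876. Of 7 B cell markers 1 fell (Dntt), and their sum was 3721 to 14827 against 890 to 2074. Of 5 NK cell markers 2 rose (Gzma and Gzmb), and the ICN2-positive mean was higher for 3 and lower for 2. The NK cell sums were 11793 to 13435 against 14115 to 24172. Of 10 T cell markers none passed in limma. An unadjusted p below 0.05 was found for 4, 3 higher and 1 lower, and for 27.4% of all genes. The T cell sums were 553 to 947 against 1330 to 3389. No value in the table was 0. The part of these cell types in the p53 gene differences was not tested.

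Other genes around p53 were read from the same fit, in which 4.35% of all genes were called and 27.4% had an unadjusted p below 0.05. Of 25 tested further p53 targets none passed in limma, and 6 had an unadjusted p below 0.05, 3 in each direction; with array weights 4 were called higher and 3 lower. Eda2r, an X-linked death receptor of the TNF family, read 4.97, 5.37 and 4.69 against 6.15, 5.70 and 5.71 and lay above the 40th percentile on 1 ICN2-negative and 3 ICN2-positive arrays, so that it was tested mainly through the group in which it is higher. The immediate early gene Ier5 differed by 0.55 ± 0.15 (adjusted p = 0.0942), and Dcxr, a carbonyl reductase, by -0.43 ± 0.12 (adjusted p = 0.0990). Dram1, a lysosomal protein of p53-induced autophagy, read 9.61, 10.26 and 10.22 against 5.90, 8.66 and 8.32, with ICN2-positive replicate 1 lowest as for Tigar (difference -2.40 ± 0.75, adjusted p = 0.118).

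Of 27 tested regulators and cofactors of p53, 1 rose and 1 fell, where 4.35% of all genes were called. Trp53inp2, which works in autophagy and shares a family with Trp53inp1, read 8.88, 8.88 and 8.95 against 7.10, 7.55 and 7.61. It fell by 1.49 ± 0.14 (limma adjusted p = 0.00974), and its call was lost only without ICN2-negative replicate 2 or 3 (adjusted p = 0.0591 and 0.064). Daxx, a histone chaperone that binds p53, read 9.78, 9.65 and 9.75 against 10.08, 10.10 and 10.17. It rose by 0.39 ± 0.07 (limma adjusted p = 0.0415), and that call was lost without any single array (adjusted p = 0.0506 to 0.144). Ppp1r13l, an inhibitory partner of p53, and Mdc1, a DNA damage adaptor, differed by 0.38 ± 0.09 and -0.23 ± 0.06 (adjusted p = 0.0717 and 0.0974). Cdkn2a, the locus of the Mdm2 inhibitor Arf, lay at a mean of 4.91 and 4.73 in the groups and was not tested.

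Among 20 tested genes of the BCL2 family and the caspases, 1 rose and 1 fell, where 4.35% of all genes were called. The ICN2-positive mean was lower for 15 of the 20, and for 6035 of all 12834 genes tested. Bcl2l11, which encodes Bim, read 11.84, 11.88 and 11.98 against 12.46, 12.36 and 12.48 and rose by 0.54 ± 0.07 (limma adjusted p = 0.0243). This call held without ICN2-positive replicate 1 or 2 (adjusted p = 0.038 and 0.0475) but not when another array was left out (adjusted p = 0.0712 to 0.111). Bid, which links death receptors to mitochondria and is a p53 target, read 11.87, 12.07 and 11.98 against 11.52, 11.46 and 11.58. It fell by 0.46 ± 0.08 (limma adjusted p = 0.0423), a call lost without any single array (adjusted p = 0.0596 to 0.154). The survival genes Bcl2 and Bcl2l1 differed by -0.68 ± 0.15 and -0.46 ± 0.11 without passing (adjusted p = 0.0680 and 0.0745).

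Of 6 tested CDK inhibitor and pocket protein genes none passed in limma, and 2 had an unadjusted p below 0.05, both lower. All 6 had lower means in ICN2-positive cells, led by Rbl2 at -0.28 ± 0.08 (adjusted p = 0.105) and the retinoblastoma gene Rb1 at -0.56 ± 0.18 (adjusted p = 0.13). Of 25 proliferation genes, many of which fall when p53 is active, none passed in limma and 2 had an unadjusted p below 0.05, both lower. Over all genes 4.35% were called and 27.4% had an unadjusted p below 0.05. Array weights called 2 lower in each of these 2 lists. The proliferation genes with the smallest p were Tk1 at -0.19 ± 0.06 and E2f1 at -0.37 ± 0.13 (adjusted p = 0.122 and 0.138). Their median difference was -0.01 and their median absolute difference 0.07, against 0.18 over all genes.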

How the data were processed

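The deposited table gave 1 intensity per probe set and array on a linear scale, made by the authors with RMA (background correction, quantile normalization and probe summary; named in the submitters' processing notes, with no version given). RMA gives all arrays nearly the same distribution, so a change in total RNA per cell would not be seen, and no measured background lies behind the values. The labels' protocols give an input of 5 ng total RNA, amplified and then labelled with biotin. Median log2 intensity was 6.05 to 6.09 on the 6 arrays, and their number limits the precision.

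Here log2 was taken, and 64 of the 45101 probe sets were left out as controls. Of the rest, 34945 had 1 gene in the platform annotation and 932 several. All 28 measured p53 genes matched RefSeq by gene identifier. Per gene the probe set of highest mean was fitted with limma 3.58.1 in R 4.3.3 (lmFit, eBayes, no covariate; 12834 genes past the filter, Benjamini-Hochberg). Further probe sets were read from a fit over 27424 probe sets, an alternative chosen after seeing the data. The fit was tested on simulated data.

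All 30 genes are named; of the other lists the 4 genes of smallest p and any called gene were eligible for naming, and the sort and sex-linked markers whole. For marker lists only some of these are printed. The genes and lists were chosen with earlier results of these data known, so no list test was made. Alternatives covered the filter, normalization, pseudocount, variance model, array weights, probe set choice, replicate block, threshold and each array left out.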

Additional observations from a re-analysis of the deposited data

How the results depend on the processing

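The 3 calls among the p53 genes rest on small margins. No difference of a p53 gene that was called in any setting changed sign. Of 448 pairs of a p53 gene and an alternative, 419 kept their side of the threshold, 15 lost a call and 14 gained one. All 15 losses fell on Perp, Zmat3 and Sesn1, since only a called gene can lose its call. Most pairs belonged to genes not called in the main fit. The threshold of 0.1 was not among these pairs. With 1 array left out, 0 to 2 p53 genes were called higher and 0 to 2 lower. Limma called none without ICN2-negative replicate 3 or without ICN2-positive replicate 3, where 9 and 7 had an unadjusted p below 0.05. Array weights gave 8 higher and 3 lower, and a threshold of 0.1 gave 4 and 2. A second lower call, Btg2, came with a repeated quantile normalization, log2(value + 16) and an intensity trend (2 lower each). Sesn1 was not called as a mean of probe sets or without _x_at and _s_at probe sets (0 lower each). The median difference of the p53 genes was 0.087 with the 60th percentile as filter, 0.14 with array weights and -0.011 to 0.13 with 1 array left out.

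Over all genes, 331 were higher and 227 lower. With 1 array left out 68 to 373 were higher and 28 to 395 lower; array weights gave 1745 and 1516, a threshold of 0.1 gave 898 and 702, and an intensity trend gave 365 lower. In the 5 other gene lists together 2 were higher and 2 lower. This became 1 and 1 with no filter, 1 higher with an intensity trend, 1 lower with median centring or the mean of probe sets, 10 and 15 with array weights, and 5 and 7 at a threshold of 0.1. With 1 array left out it was 0 to 1 higher and 0 to 2 lower. The cause was not tested where a count changed.

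Same-numbered arrays correlated in their deviations from the group means at 0.18, 0.13 and 0.09 over genes, so they were not taken as pairs; 4 of 6 arrays correlated best with their own number. With the replicate block, 1 p53 gene was higher (Zmat3) and 1 lower, Perp had an adjusted p of 0.054 in limma, 179 genes were higher over all, and the other lists had 0 higher and 1 lower.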
